A study of Rattus norvegicus with 4 samples.

Results

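The comparison described here sets whole rat testis 4 h after retinol against vitamin A deficient testis (VAD, given retinol for 0 h). These are 2 of the 4 samples of the series, chosen by their labels, and the others were taken 8 h and 24 h after retinol. All animals were fed a diet lacking vitamin A for 9 weeks from the age of 20 days, so that deficiency was shared by both groups and retinol was the difference between them. The sources used here do not give the dose and route of retinol, the strain, or the number of animals or chips behind a sample. Each group was 1 sample, referred to as an array. With 1 array a side there is no replicate and no test between the groups. The table gave 4736 genes, of which 1565 were read by 2 or more probe sets and 3171 by 1.

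Retinol is carried by binding proteins, stored as retinyl ester and oxidised in its target cells through retinal to retinoic acid. Retinoic acid binds the retinoic acid receptors, which pair with retinoid X receptors on DNA and switch target genes directly, so its first targets can respond within hours and without new protein synthesis. In the testis, Sertoli cells support the germ cells and Leydig cells make androgen. Without the vitamin most germ cells beyond the spermatogonia are lost, and retinol lets spermatogonia differentiate again. The question put by the series title and design is which transcripts differ as the vitamin returns, and 4 h is its earliest time.

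A change is the log2 of the deposited ratio on the 4 h array minus that on the VAD array, so 1 means 2-fold higher at 4 h and -1 means 2-fold lower. A gene's change is the mean over its probe sets. Most genes differed little between the arrays. The median change of all genes was -0.09, the SD across genes was 0.41, and 2555 genes (53.9%) lay within 0.25 of the median. Past 2-fold were 67 genes on the higher side (1.41% of all genes) and 59 on the lower side (1.25%). Each count of listed genes past 2-fold below is to be read beside these shares. The counts at 1.5-fold were 292 (6.17%) and 314 (6.63%), and those at 3-fold were 14 and 9. Centring both arrays on their own medians turned the 2-fold split into 90 higher and 42 lower, and a scaling on bacterial spike-in RNAs turned it into 446 and 11. All 9 spike-in probe sets were lower on the 4 h array, by changes of -0.81 to -0.37 with a median of -0.55. A gene's place above or below the median of all genes is not touched by such scaling, so that is the direction given for groups of genes below, and the sign of a single change under 0.55 in size holds for the ratios as deposited.

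Among the 67 genes at least 2-fold higher, the VAD ratios ran from 0.416 to 2.81 with a median of 0.945, and the 4 h ratios from 1.14 to 10.3 with a median of 2.27. Among the 59 genes at least 2-fold lower, the VAD ratios ran from 0.632 to 2.88 with a median of 1.01, and the 4 h ratios from 0.0933 to 1.23 with a median of 0.436. The VAD ratio lay within 10% of 1 for 21 of the higher genes (31.3%) and 24 of the lower genes (40.7%), against 3041 of all genes (64.2%). Of the other higher genes, 24 had a VAD ratio more than 10% below 1, which adds to the difference, and 22 more than 10% above it. Of the other lower genes, 16 had a VAD ratio more than 10% above 1, which adds to the difference, and 19 more than 10% below it. The ratios carry no signal level, so the labelled tissue could not be checked by the presence of its markers, and in whole testis fewer cells of a type and less RNA per cell cannot be told apart.

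Probe sets that read the same gene gave the only error available. Each gene with 2 or more source records gave 1 pair, from its first 2 source records in order of probe set name. Among these 1083 pairs, the difference between the changes of the probe sets had an SD of 0.60, or 0.43 for 1 probe set. The signs matched in 579 pairs (53.5%), and the correlation across these pairs was 0.14. In 86 pairs at least 1 probe set passed 2-fold, and in 3 of these (3.49%, exact 95% binomial interval 0.725 to 9.86) both did so in the same direction, for Chka, Pfkfb3 and Bmp3. Further source records of a gene were left out of these pairs: Dusp1 has 3, and its pair was at 1.90 and 0.45. Over all 3281 pairs of probe sets of a gene, same source record included, both passed 2-fold in the same direction in 11 of 268 (4.10%). In 56 of the 86 (65.1%) the partner had the same sign. No pair passed 2-fold in opposite directions, and 12 pairs passed 1.5-fold in opposite directions where 30 passed it in the same one. Pairs built from the same source record matched in sign more often, in 528 of 817 (64.6%). Of genes with 1 probe set, 1.83% passed 2-fold upward and 1.73% downward, against 0.575% and 0.256% of genes whose value is a mean over several.

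**Figure D1:**
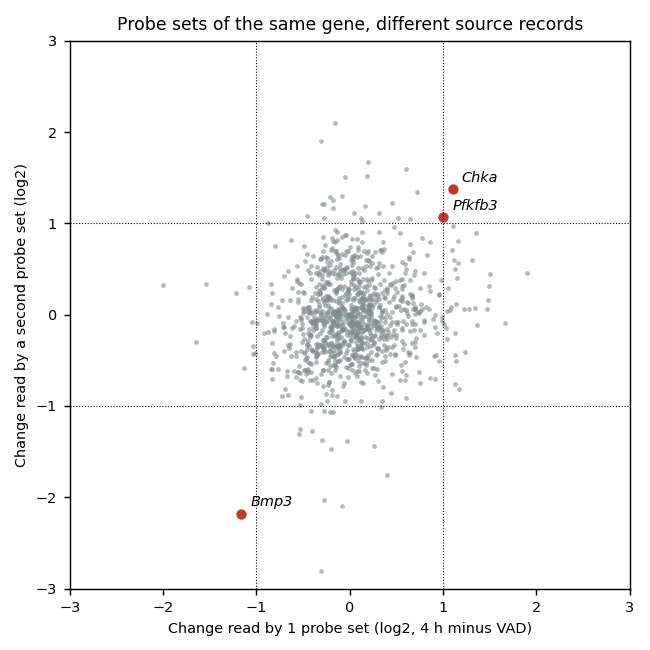
Change at 4 h (log2, 4 h minus VAD) read by one probe set (horizontal axis) and by another probe set of the same gene built from a different source record (vertical axis), for 1083 pairs, with dotted lines at 2-fold. Most pairs that pass 2-fold on one axis lie inside it on the other, and the red points mark the 3 pairs (Chka, Pfkfb3 and Bmp3) past it on both.

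Every probe set was above VAD in 261 of the genes with several (16.7%) and below it in 506 (32.3%), but few of these passed 1.5-fold throughout. Of the 1565 genes with 2 or more probe sets, 13 (0.831%) were 1.5-fold or more higher in every one, and 15 (0.958%) were lower by that much in every one. The probe sets of 8 of the higher and 10 of the lower genes came from 2 or more source records, which makes their probe sets the more separate readings. The other 5 on each side rest on 1 source record each: Cd36, Alas1, Man2a1, Ccl2 and Ube2g1 on the higher side, and Krt10, Ppp1cb, Ptpn6, Txnl1 and Nrgn on the lower side.

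Several of the higher genes act in lipid, sugar and haem metabolism. Chka encodes choline kinase, which starts phosphatidylcholine synthesis. Its 3 probe sets had ratios of 0.901, 0.995 and 0.758 on the VAD array and 1.93, 2.58 and 1.71 on the 4 h array, so all of the 4 h values lay above all of the VAD values, and the change was 1.22 (2.32-fold). Pfkfb3 makes the bisphosphate that drives glycolysis through phosphofructokinase, and its probe sets went from 1.49 to 2.99 and from 1.04 to 2.18, a change of 1.03. Alas1 encodes the first enzyme of haem synthesis. Its probe sets were at 1.08 and 1.23 for VAD and at 2.62 and 2.05 at 4 h, a change of 1.01, and both were nearer their VAD values at 8 h (1.32 and 1.25) than at 4 h. At 24 h the second was at 0.915. Cd36, the fatty acid scavenger receptor, had the largest change of these genes, 1.69, from 0.861 to 2.14 and from 0.775 to 3.26. Man2a1, a Golgi mannosidase, went from 0.55 to 0.876 and from 0.588 to 1.26, so 1 of its 4 h values stayed under 1.

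Others of the higher genes serve growth control and signalling. Cdkn1a encodes p21, which halts the cell cycle, and its probe sets went from 1.12 to 2.86 and from 0.79 to 1.47, a change of 1.12. Akt2, a kinase downstream of insulin, started low on the VAD array (0.609 and 0.579) and reached 1.47 at 4 h with its second probe set, while the first was 0.72 higher in log2. Ppp3r1, the regulatory subunit of the phosphatase calcineurin, went from 0.874 to 1.32 and from 0.356 to 1.08. For both, the change of about 2-fold (1.03 and 1.10) came in large part from a VAD ratio well under 1. Dnm1l, a GTPase that divides mitochondria, was read by 4 probe sets that were at 0.561 to 0.959 for VAD and 1.20 to 1.67 at 4 h, with no overlap, and its change was 0.89. Lmnb1 of the nuclear lamina was at 0.99 and 0.997 for VAD and 2.14 and 1.51 at 4 h, a change of 0.86. Krt18, an epithelial keratin listed among the Sertoli cell markers, had a change of 0.83. Ccl2, which attracts monocytes, was at 0.854 and 0.993 for VAD and 1.51 and 1.55 at 4 h, and back at 1.03 and 0.911 at 8 h. Star, which brings cholesterol into mitochondria for steroid synthesis, lay just short of 1.5-fold with both probe sets, from 0.945 to 1.39 and from 0.986 to 1.47, and both were lower again at 24 h (0.506 and 0.808).

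On the lower side, Bmp3 led. It encodes a bone morphogenetic protein that counters other members of its family, and its probe sets went from 1.24 to 0.553 and from 0.97 to 0.214, a change of -1.67 (3.19-fold lower). Krt10, a keratin of differentiating epithelium, went from 1.06 to 0.34 and from 1.05 to 0.60, a change of -1.22. Cited2, a transcriptional regulator that binds the coactivators CBP and p300, was read low by 3 probe sets. They were at 0.712, 0.853 and 0.875 for VAD and at 0.431, 0.418 and 0.47 at 4 h, a change of -0.88, and stayed between 0.291 and 0.693 at 8 and 24 h. Ppp1cb, a catalytic subunit of protein phosphatase 1, was at -0.99, and Ptpn6, the phosphatase SHP-1 of blood cells, at -0.86.

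Other genes read lower by every probe set were of mixed function. Hspd1, the mitochondrial chaperonin, went from 1.09 to 0.682 and from 0.982 to 0.615, so that its probe sets gave the same change of -0.68. Txnl1, a thioredoxin-like protein, was at -0.72 and complement C3 at -0.75. The 2 probe sets of C3 parted later: at 24 h one was at 2.61 and the other at 0.816. Slc24a2, a sodium, potassium and calcium exchanger, was at -0.86, Arl10, a small GTPase, at -0.77, and Nrgn, a calmodulin-binding protein of neurons, at -0.74.

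**Figure D2:**
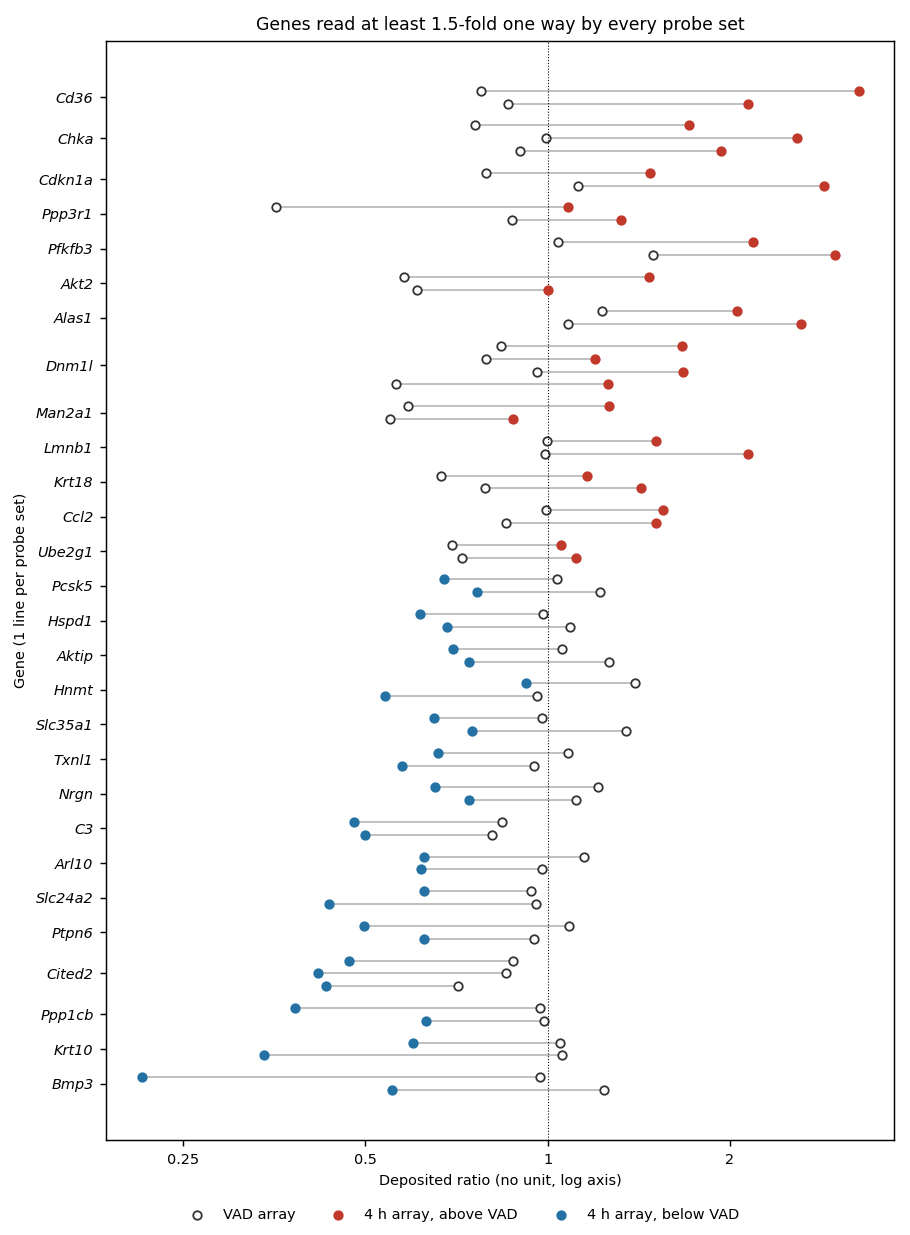
Deposited ratio (log axis, no unit) on the VAD array (open circles) and the 4 h array (red above VAD, blue below) for each probe set of the 13 genes read 1.5-fold or more higher and the 15 read lower to that extent by every probe set. Most VAD values lie near 1, whereas those of Akt2, Man2a1 and 1 probe set each of Ppp3r1 and Dnm1l lie well to the left of it. Those of Krt18, Ube2g1 and Cited2 also lie to its left. Each line joins 1 array to 1 array.

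The 5 prime and 3 prime ends of a transcript did not read alike. On the control probe sets, the 5 prime end of beta-actin was at 1.11 and the 3 prime end at 0.06, those of GAPDH differed by 0.68 and those of hexokinase by 0.39, with the 5 prime end higher in each. Of 15 control probe sets on the antisense strand, 12 were lower at 4 h, with a median of -0.18. The part of such end effects in the genes named here was not tested.

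Promoters are shown for 3 genes that stand for the comparison: Nr0b1, the nuclear receptor gene with the largest change; Dusp1, a feedback gene read above VAD by each of its probe sets; and Tnp2, the spermatid gene with the largest change. They are the 250 bases before the start of the gene in RefSeq's annotation of assembly GRCr8, 5′ to 3′ on the coding strand, and lie at chrX:54707408-54707657, chr10:17184603-17184852 and chr10:5386485-5386734 in that order, each on the plus strand. Capitals mark AGGTCA, the core that retinoid and other nuclear receptors bind, or its reverse complement TGACCT, in Nr0b1 and Tnp2, and TGACGTCA, the cAMP response element, in Dusp1.
Nr0b1: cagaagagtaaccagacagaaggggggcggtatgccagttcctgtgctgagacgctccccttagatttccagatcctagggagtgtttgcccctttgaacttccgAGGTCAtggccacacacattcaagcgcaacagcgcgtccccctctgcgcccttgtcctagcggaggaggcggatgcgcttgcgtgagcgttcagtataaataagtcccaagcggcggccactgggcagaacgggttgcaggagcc
Dusp1: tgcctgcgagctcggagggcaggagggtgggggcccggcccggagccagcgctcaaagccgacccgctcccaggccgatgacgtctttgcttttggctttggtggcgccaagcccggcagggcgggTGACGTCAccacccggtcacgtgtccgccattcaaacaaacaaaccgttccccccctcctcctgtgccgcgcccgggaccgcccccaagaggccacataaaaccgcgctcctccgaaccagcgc
Tnp2: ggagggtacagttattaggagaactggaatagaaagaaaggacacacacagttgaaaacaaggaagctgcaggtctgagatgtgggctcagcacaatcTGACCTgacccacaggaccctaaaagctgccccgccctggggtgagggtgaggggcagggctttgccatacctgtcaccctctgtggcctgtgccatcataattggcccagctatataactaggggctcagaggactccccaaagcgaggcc

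In windows from 250 bases before to 50 bases after the start, both strands searched, AGGTCA was present in 6 of the 59 promoters found for the 2-fold higher genes (10.2%) and in 4 of 49 for the lower genes (8.16%). It was present in 523 of 3871 promoters of genes on the array (13.5%) and in 5415 of 33469 in the whole table (16.2%), so neither group held it more often than the array as a whole. AGGTCA repeated in the same direction with 1, 2 or 5 bases between, the arrangement that pairs of retinoid receptors prefer, was found in none of the 2-fold genes and in 18, 4 and 3 promoters of the whole table. TGACGTCA was present in 3 promoters of the higher genes (5.08%), those of Dusp1, Fat1 and Oxsr1, in none of the lower genes, and in 2.43% of promoters of array genes. The AP-1 site TGANTCA was present in 6.78%, 6.12% and 5.81% of the 3 sets, and the GC box GGGCGG in 44.1%, 44.9% and 56.2%. A match is a description of letters in this window, and its absence says only that they are not there.

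Genes that carry, store, oxidise or break down retinoids stayed mostly close to VAD, and 1 of the 21 measured passed 2-fold. Of the 21, 15 lay below the median of all genes and 6 above, and their median was -0.21 against -0.09 for all genes. The member past 2-fold was Rpe65, the isomerohydrolase of the visual cycle, at -1.47, with a ratio of 0.902 for VAD and 0.325 at 4 h on 1 probe set.

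Among the binding proteins, Rbp2, the intestinal cellular retinol binding protein, went from 1.28 to 1.88 (0.56). Rbp4, the plasma retinol carrier, was lower with each of its 3 probe sets, at -0.16, -0.19 and -0.50. Transthyretin (Ttr), which holds Rbp4 in plasma, went the other way, from 0.946 to 1.59 and from 0.709 to 0.886 (0.54). Of the retinoic acid binding proteins, Crabp1 was at -0.23 and Crabp2, which passes retinoic acid to its receptors, at -0.73. Crabp2 was already low on the VAD array, with a ratio of 0.394 against 0.238 at 4 h. Fabp5, which can carry retinoic acid to another receptor class, was at -0.50.

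The oxidising enzymes split. Rdh10, a main retinol dehydrogenase, went from 0.977 to 1.53 (0.65), and the alcohol dehydrogenase gene Adh4 from 1.18 to 1.58 (0.43). The other 6 of the 8 lay below the median of all genes: Adh5 was at -0.47, Rdh7 at -0.44, Adh7 at -0.23 and Rdh16 at -0.15, and the retinal dehydrogenases Aldh1a1 and Aldh1a2 were at -0.46 and -0.19. Each of these but Rdh16 rests on 1 probe set, whose noise of 0.43 is close to or above all of these values but that of Rdh10. The change of Rdh10 was itself below the 95th percentile of all genes, 0.653. Of the genes that store or release retinyl esters and other lipids, Dgat1 was at -0.22, Lipe at -0.18, Lpl at -0.18 and Pnliprp2 at 0.06. Cyp26b1, which degrades retinoic acid and is a target of it, was at -0.21 (0.874 to 0.758). Cyp1b1, which can oxidise retinoids as well as steroids, was at 0.37, but its 4 probe sets ran from -0.14 to 1.06.

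The retinoid receptors differed little from VAD. Rara was above VAD with all 3 probe sets, from 0.743 to 0.964, 1.01 to 1.04 and 1.02 to 1.16 (0.20), and Rarb, which is itself a direct target of retinoic acid, was at 0.06 (1.05 to 1.09). Rxra was at -0.06, Rxrb at -0.02 and Rxrg at 0.01. All 5 lay above the median of all genes.

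**Figure D3:**
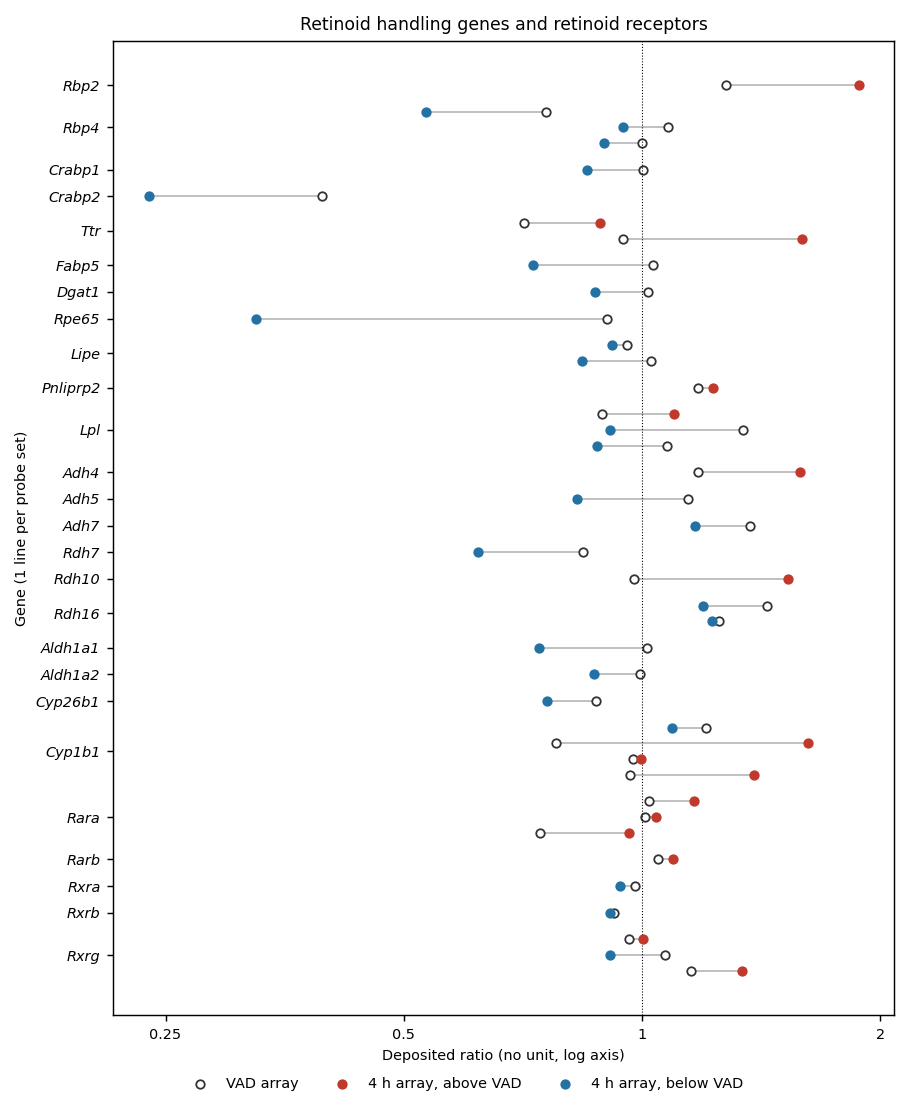
Deposited ratio (log axis, no unit) on the VAD array (open circles) and the 4 h array (red above VAD, blue below) for every probe set of the 21 measured retinoid handling genes and the 5 retinoid receptors. Rpe65 is the gene past 2-fold, Crabp2 starts low on the VAD array, and the receptor lines are short. Blue lines under 0.55 in log2 length would turn red with the spike-in scaling.

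Genes chosen as known retinoic acid targets were 19, with a median of 0.09, and 14 lay above the median of all genes. None was 2-fold higher. Bhlhe41, a circadian repressor, was 2-fold lower, from 0.88 to 0.414 (-1.09). Crabp2, which stands in this list too, was at -0.73. Foxa1, a forkhead factor, was at 0.73 and Plat, tissue plasminogen activator, at 0.58. Past 1.5-fold were 1 of the 19 on the higher side and 2 on the lower side. Kit, the stem cell factor receptor of differentiating spermatogonia, had close readings from its 2 probe sets, 0.8 to 1.08 and 0.777 to 1.08 (0.46). Both were higher still at 24 h (1.35 and 1.85).

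Among the 35 measured nuclear receptors and their relatives, the orphan members took the 3 largest changes. The list had a median of 0.06 and 26 members above the median of all genes. Nr0b1 (DAX1), which represses genes of steroid synthesis, was the 1 member past 2-fold, from 1.09 on the VAD array to 3.50 at 4 h (1.68, 3.20-fold). It was at 5.77 at 8 h and 4.91 at 24 h on the same probe set. Nr0b2 (SHP), the related repressor, was above VAD with each of 3 probe sets, from 1.06 to 1.66, 1.03 to 1.33 and 1.34 to 3.72 (0.83), and all 3 had come down by 8 h (0.962, 1.25 and 1.80). Nr5a1 (SF-1), the activator that Nr0b1 represses, went from 0.763 to 1.31 (0.78), and Ppara, the fatty acid receptor, from 0.952 to 1.64 (0.78). On the lower side, Nr2f1 (COUP-TFI), which also binds retinoid response elements, went from 0.947 to 0.68 and from 0.961 to 0.396 (-0.88). Of the 4 coregulators measured, none passed 1.5-fold: Ncoa1 was at 0.29, Ncoa4 at 0.10, Med1 at -0.15 and Hdac2 at -0.47.

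The immediate early genes, which answer many stimuli within minutes to hours, did not stand high as a class at 4 h. Of 44 measured, none was 2-fold higher and 1 was 2-fold lower, their median was 0.00, and 30 lay above the median of all genes. The count depends on the choice of list: Dusp1 was placed with the genes that damp signalling and not here, and it was 2-fold higher. The AP-1 genes, picked here after their values were seen, were near VAD: Fos was at 0.32, Jun at -0.26 and Junb at -0.03, and Egr1 was at 0.09. The 3 members past 1.5-fold higher were Gadd45a, Errfi1 and Ier3. Gadd45a, a DNA damage gene, went from 1.08 to 2.79, from 0.969 to 2.62 and from 0.928 to 1.67 with 3 of its probe sets, but from 0.747 to 0.688 with the other. Its mean was 0.88. Errfi1, an inhibitor of the EGF receptor, was at 0.84, with probe sets from 0.924 to 3.97, 0.958 to 1.43 and 1.23 to 1.10. Ier3 was above VAD in both, from 0.92 to 1.34 and from 0.915 to 1.67 (0.71).

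On the lower side 3 members passed 1.5-fold, Klf6, Klf4 and Myc. Klf6, a zinc finger factor, went from 0.942 to 0.45 (-1.07) on 1 probe set. Klf4, named after its values were seen, was at -0.62 and Myc, a growth regulator, at -0.60, with both probe sets below VAD (0.828 to 0.601 and 1.17 to 0.707). Other Kruppel-like genes in the list were not low: Klf10 was at 0.25 and Klf9 at 0.09. Outside the list, Klf13 was 2-fold lower, from 0.914 to 0.436 on 1 probe set.

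Of 24 genes that damp signalling, Dusp1 passed 2-fold. It encodes a phosphatase that switches off MAP kinases. Its probe sets went from 0.752 to 2.80, from 0.923 to 1.26 and from 1.09 to 3.82, all above VAD though by 0.45 to 1.90, and the change was 1.39 (2.61-fold). The probe sets with the large changes stayed at 2.79 and 4.13 at 8 h and at 2.92 and 3.04 at 24 h. Rgs18 and Rgs4, which speed the shutoff of G proteins, were at -0.67 and -0.60.

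**Figure D4:**
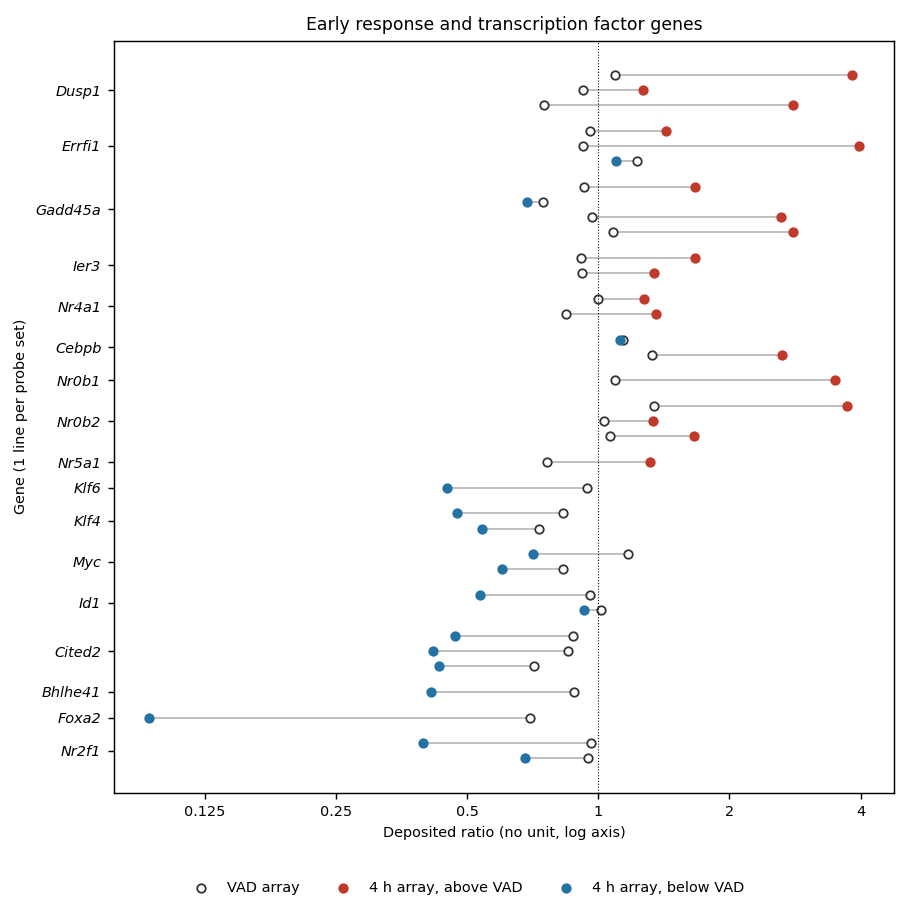
Deposited ratio (log axis, no unit) on the VAD array (open circles) and the 4 h array (red above VAD, blue below) for every probe set of 17 early response, receptor and transcription factor genes. Dusp1, Nr0b2 and Ier3 are red on every line and Klf4, Myc and Cited2 blue on every line, whereas Gadd45a, Errfi1 and Cebpb have lines of both colours. The blue lines shorter than 0.55 in log2 would turn red with the spike-in scaling.

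Of 77 developmental transcription factors, 3 were 2-fold lower and none 2-fold higher, beside 1.25% and 1.41% among all genes. The median of the 77 was 0.01, and 50 lay above the median of all genes. Foxa2, an endoderm factor, had the largest change of all genes, from 0.696 to 0.0933 (-2.90), and stayed low at 8 h (0.211) and 24 h (0.238). Pou1f1, the pituitary factor, went from 0.825 to 0.243 (-1.76) and Msx1, a homeobox gene, from 0.702 to 0.345 (-1.02). All 3 rest on 1 probe set and began under 1 on the VAD array. Wt1, which Sertoli cells need and which was named after its values were seen, averaged 0.64 over probe sets from -0.16 to 1.10.

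The bone morphogenetic protein branch held the largest lower changes of the growth factor and cytokine lists. In a list of 39 TGF-beta and BMP genes, 2 were 2-fold lower, Bmp3 and Bmp4, and none was 2-fold higher. The shares among all genes were 1.25% and 1.41%. Bmp4, which acts on early germ cells and spermatogonia, went from 0.854 to 0.271 (-1.66) on 1 probe set and was at 0.263 at 8 h. The antagonists of the pathway lay low, with 7 of 8 below the median of all genes. Among them, and named after their values were seen, Nog was at -0.83 and Fst at -0.70, each with 1 probe set past 2-fold (-1.47 and -1.16) and the other at -0.20 and -0.23. Smad9, a BMP signal transducer, was at 0.88 (1.23 to 2.26) and Gdf15, a stress-linked ligand, at 0.85.

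Growth factors, guidance cues and their receptors gave 3 of 81 past 2-fold upward and 1 downward, with 52 above the median of all genes. Among all genes, 1.41% passed 2-fold upward and 1.25% downward. Efnb1, a membrane ligand of Eph receptors, went from 0.898 to 2.04 (1.19), the lymphatic growth factor gene Vegfd from 1.38 to 3.10 (1.17) and the semaphorin gene Sema4b from 0.947 to 2.09 (1.14). Efnb1 and Sema4b stood higher again at 8 h, at 4.21 and 4.75. Kdr, the main VEGF receptor of endothelium, went from 1.03 to 0.389 (-1.40). Gdnf, the Sertoli cell factor that keeps spermatogonial stem cells, went from 0.933 to 1.82 (0.97) and was at 1.06 at 24 h, while its receptor gene Gfra1 went from 0.816 to 1.01 and from 0.856 to 1.60 (0.61). In the cytokine list, 1 of 64 passed 2-fold, the eosinophil chemokine receptor gene Ccr3 at -1.15. The interleukin receptor gene Il7r was just short of it at -0.999 (0.977 to 0.489), Ccl3 was at 0.97 and Cxcl13 at -0.74.

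Of 75 genes of G protein and cAMP signalling, 2 were 2-fold higher, beside 1.41% among all genes. Gnal, the olfactory stimulatory G protein subunit, had the highest ratio on the 4 h array, 10.3, but was also at 2.81 on the VAD array (1.88). Adcy10, the soluble adenylyl cyclase of sperm, went from 1.12 to 2.26 (1.01). Akap12, an anchor for protein kinase A, was at 0.97 and Atf2, a factor that binds cAMP response elements, at 0.90, each with a probe set near 1.5 and another under 0.45. Of 97 kinase cascade genes, 3 were 2-fold higher, Oxsr1, Ptprd and Akt2. Oxsr1, a kinase of the osmotic stress response, went from 1.79 to 5.35 (1.58) and on to 7.34 at 8 h. Ptprd, a receptor phosphatase, went from 0.775 to 1.75 (1.18), and Jak1, a cytokine receptor kinase, from 0.969 to 1.90 (0.97). Of 98 calcium and ion channel genes 1 was 2-fold higher, the potassium channel gene Kcnk5 (1.12), and of 119 transmitter receptors 1 was higher, Gabrp (1.11), and 1 lower, Glra2 (-1.12). In these lists of excitable cell genes, 3 of 217 genes passed 2-fold either way, beside 1.41% higher and 1.25% lower among all genes.

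The genes of protein synthesis and respiration lay low together and by small amounts. Of 40 ribosomal protein genes, 38 lay below the median of all genes, with a median of -0.39, and 2 were 2-fold lower, Rpl17 (1.01 to 0.458) and Rpl30 (1.13 to 0.514). In 14 of the 16 that had several probe sets, every probe set was below VAD. Rpl21 was one of these, with 4 probe sets at -0.20, -0.64, -0.64 and -0.99. Of 50 respiratory chain genes, 45 lay below the median of all genes, with a median of -0.36 and none past 2-fold, and every probe set was below VAD in 16 of 24. Ndufb2 was at -0.76 and Ndufb9 at -0.73, both subunits of complex I, while Ndufs1 of the same complex was at 0.65. Of 39 proteasome and ubiquitin genes, 29 lay below, with a median of -0.24. An exception was Ube2d2b, the 1 member 2-fold higher, from 0.655 to 1.37 on 1 probe set. Among all genes with several probe sets, every probe set was below VAD in 506 of 1565 (32.3%). With the spike-in scaling the ribosomal median was 0.16 and the respiratory one 0.19, so the low position is one against other genes, not an absolute one.

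Chaperone, redox, lipid and lysosomal genes held some 2-fold changes, set against 1.41% higher and 1.25% lower among all genes. Of 46 chaperone and unfolded protein response genes of the cytosol, mitochondria and endoplasmic reticulum, 1 was 2-fold lower, Dnajb14 (-1.07), and 23 lay on each side of the median of all genes. Hspa5 (BiP), the main chaperone of the endoplasmic reticulum, was below VAD with 3 probe sets, but by -0.18, -0.55 and -1.34. Of 47 antioxidant genes, Nox4, an oxidase that makes hydrogen peroxide, was 2-fold lower, from 1.02 to 0.308 (-1.73), and Gclc, the limiting enzyme of glutathione synthesis, went from 0.72 to 1.30 (0.86). Cd36 was the 1 of 53 genes of lipid uptake and oxidation past 2-fold. Acadsb, a mitochondrial acyl-CoA dehydrogenase, went from 1.21 to 2.20 (0.86) and on to 5.49 at 8 h. None of 16 cholesterol synthesis genes passed 2-fold. Of 31 lysosomal genes, 19 lay below the median of all genes and 2 were 2-fold higher. These were Laptm4a, a lysosomal membrane protein, from 2.06 to 7.20 (1.80), and Gm2a, the activator that presents gangliosides for breakdown, from 0.488 to 1.61 (1.72), so 1 of them began high and the other low on the VAD array.

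Of 46 cell cycle and replication genes, 2 were 2-fold higher, Lig3 and Cdkn1a, and 1 lower, Pold1. Among all genes the shares were 1.41% and 1.25%. Lig3, a DNA ligase, went from 1.25 to 3.99 (1.67). Pold1, the catalytic subunit of DNA polymerase delta, went from 0.85 to 0.328 (-1.37). Ccng1, a p53 target, was at 0.87 (1.16 to 2.12).

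**Figure D5:**
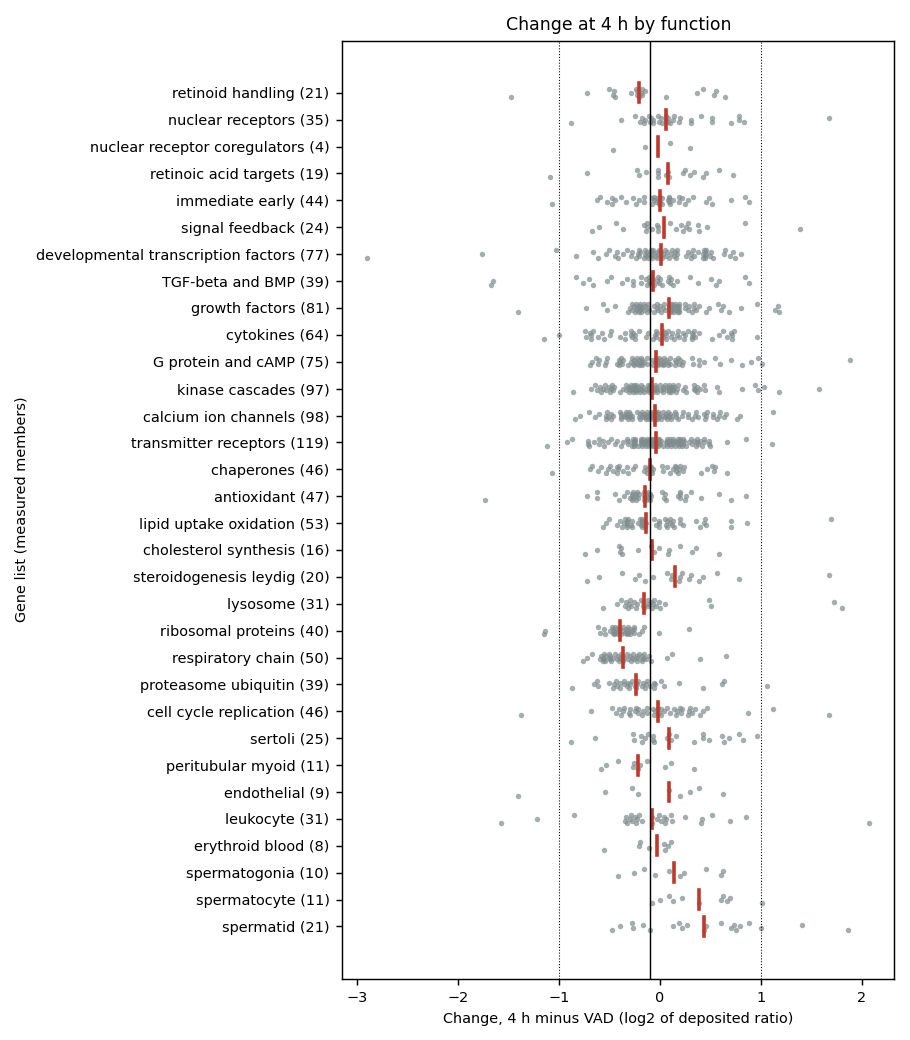
Change at 4 h (log2, 4 h minus VAD) of every measured member of 32 gene lists, 1 point per gene, with the list's median as a red bar, the median of all genes (-0.09) as a solid line and 2-fold as dotted lines. The ribosomal protein, respiratory chain and proteasome bars lie to the left of the solid line, those of spermatocyte and spermatid genes to the right, and most other bars lie close to it. Numbers in brackets are measured members, and a gene can stand in more than 1 list.

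Markers of the somatic cells held some 2-fold changes, set against 1.41% higher and 1.25% lower among all genes. None of 25 Sertoli cell genes passed 2-fold, and 17 lay above the median of all genes. Their median was 0.09, against 0.33 over the 11 with several probe sets and -0.06 over the 16 with a VAD ratio within 10% of 1. Beside Gdnf and Krt18, Nr5a1 was high, and Espn, an actin bundler at Sertoli cell junctions, was at -0.88 (1.03 to 0.559). Of 20 Leydig cell and steroidogenic genes, 14 lay above the median of all genes and Nr0b1 was the 1 past 2-fold. Star was at 0.56, while Cyp17a1, which turns progestins into androgens, was at -0.72 (1.01 to 0.615), and was lower still at 8 h (0.526) and 24 h (0.326). Cyb5a, its cofactor, was at -0.60, with probe sets at -0.30, -0.35 and -1.17.

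Peritubular myoid genes lay low, 8 of 11 below the median of all genes, and none passed 2-fold. The contractile genes Cnn1, Des and Tpm2 were at -0.58, -0.54 and -0.41. Acta2, the smooth muscle actin, named after its values were seen, was at 0.11, with probe sets from -0.37 to 0.57. Pdgfra, a growth factor receptor, was the highest at 0.33, with probe sets from -0.40 to 0.86. Of 9 endothelial genes, 5 lay above the median of all genes and 4 below. Kdr was 2-fold lower and Edn3 had probe sets at -0.998 and -0.0963, while Edn1 was at 0.62 and Pecam1 at 0.39. Of 31 leukocyte genes, 1 was 2-fold higher and 2 lower. Gzmn, a granzyme, had the largest positive change of all genes, from 1.03 to 4.33 (2.08), and was at 2.19 at 8 h and 0.803 at 24 h. Mcpt9, a mast cell protease, went from 1.06 to 0.356 (-1.58). Cd52, a lymphocyte surface protein, went from 2.88 to 1.23 (-1.22), so that its 4 h ratio was still above 1. Of 8 red cell and plasma genes none passed 1.5-fold, with Hbb at -0.21 and Alas2 at -0.55.

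Germ cell lists had medians of 0.14 for 10 spermatogonial, 0.38 for 11 spermatocyte and 0.44 for 21 spermatid genes. All 11 spermatocyte genes lay above the median of all genes. Pdha2, the testis form of pyruvate dehydrogenase, was 2-fold higher (1.12 to 2.26), and Sycp3 of the synaptonemal complex was at 0.62. Of the spermatid genes, 3 were 2-fold higher, beside 1.41% among all genes. Tnp2, which replaces histones in sperm chromatin, went from 2.09 to 7.64 (1.87), Cmtm2a from 1.79 to 4.74 (1.41) and Adam5, a sperm surface gene, from 0.923 to 1.85, just past 2-fold. At 8 h the 3 were at 1.99, 1.41 and 0.85, below their VAD ratios. Spam1, the sperm hyaluronidase, was above VAD in all 3 probe sets, at 0.46, 0.97 and 1.22.

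These germ cell medians moved with the VAD ratio and with the number of probe sets. For genes whose VAD ratio lay within 10% of 1, the median was 0.13 over 11 spermatid genes, 0.00 over 3 spermatocyte genes and -0.26 over 3 spermatogonial genes, and over genes with several probe sets it was -0.17 for 5 spermatid and 0.09 for 7 spermatogonial genes. The ratios hold no level, so how far spermatid RNA stood above background on either array cannot be told.

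The remaining largest changes each rest on 1 probe set. Clec9a, a dendritic cell lectin, went from 0.926 to 3.27 (1.82) and Klra22, a natural killer cell receptor, from 0.416 to 1.38 (1.73), the lowest VAD ratio of the genes 2-fold higher. On the lower side, the vomeronasal receptor gene Vom1r101 went from 1.07 to 0.297 (-1.85), the proteoglycan gene Spock2 from 0.632 to 0.187 (-1.76), the neurofilament gene Nefm from 0.709 to 0.218 (-1.70) and Pdzk1, a scaffold for membrane transporters, from 1.27 to 0.404 (-1.66). Spock2 went on to 0.113 at 8 h and 0.0728 at 24 h, whereas Pdzk1 was back at 0.865 at 8 h. The 8 and 24 h values share the VAD array with those at 4 h and are given only beside them.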

How the data were processed

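Whole testis RNA of 4 samples, 1 per group, was measured on the Affymetrix Rat Genome U34 array from 10 micrograms of total RNA per labelling, per the labels' protocols. The authors deposited linear ratios per probe set. Per the submitters' processing notes, which give no version, GCOS and MAS5 (Affymetrix's signal software) were used. The sources used here do not give the reference of the ratios, the scaling of arrays or any pooling of chips, and the ratios do not show which transcripts were dim.

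There were 8799 probe sets in the table. Left out were 59 controls, 308 with several gene symbols and 1426 with none in the platform annotation. The other 7006 gave 4736 genes, with symbols updated through Entrez IDs, 6985 of which matched RefSeq (GRCr8). Ratios were put on the log2 scale and averaged per gene in Python 3.11.15 with pandas 2.3.3 and numpy 2.4.6. Source records were taken from probe set names. The steps were tested on simulated data.

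With 1 array a group there was no test, and the fold thresholds were 2, 1.5 and 3. Genes named are the 10 largest changes each way, the 15 genes each way with the largest smallest change among those whose probe sets agreed in sign, all measured retinoid genes, and of each other list members past 2-fold and up to 4 largest. Part of these is printed. Fos, Jun, Junb, Egr1, Klf4, Klf9, Klf10, Klf13, Myc, Acta2, Wt1, Nog, Fst and Fat1 were added after their values were seen. The comparison and the 32 gene lists were chosen with earlier results of these data known. Alternatives were another centring, spike-in scaling, baseline 1 in place of the VAD array, medians over probe sets, plain probe sets, other folds and genes with a VAD ratio within 10% of 1.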

Additional observations from a re-analysis of the deposited data

Results flagged for a closer look

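Probe sets with several gene symbols or none, which enter no comparison above, also held changes past 2-fold. Of 1734 such probe sets, 35 (2.02%) were at least 2-fold higher at 4 h and 51 (2.94%) at least 2-fold lower. Among the 7006 probe sets with 1 symbol the shares were 2.21% and 1.58%. Of 15 antisense-strand controls, 1 was 2-fold lower. The genes behind the unnamed probe sets are not analysed here.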

How the results depend on the processing

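No paired analysis was possible because each group is 1 sample. Centring on the median and scaling on the spike-ins add the same amount to every change, 0.09 and 0.55, so neither could reverse a 2-fold change. After centring on the median, 67 higher and 42 lower genes stayed past 2-fold. Scaling on the spike-ins gave 446 higher and 11 lower genes and moved list medians to 0.344 for retinoid handling, 0.613 for nuclear receptors, 0.546 for immediate early genes, 0.158 for ribosomal proteins, 0.185 for the respiratory chain and 0.990 for spermatid genes. Taking 1 in place of the VAD array gave 103 higher and 91 lower genes, of which 50 and 44 were also in the counts above, and turned Cd52 to 0.301. Keeping genes with a VAD ratio within 10% of 1 left 21 and 24. The counts were 292 and 314 at 1.5-fold and 14 and 9 at 3-fold. With plain probe sets alone, 0 of 30 pairs passed 2-fold on both sides. Spermatid genes with 2 or more probe sets had a median of -0.169. The causes were not tested. One array a group, ratios without signal levels, and a noise of 0.43 for 1 probe set set the limit. That noise is 1 SD between probe sets on the same arrays, beside an SD of 0.41 for the changes of all genes. It holds no variation between animals or arrays. A change of that size in 1 probe set cannot be told from noise, and a larger one may be noise too.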

Other observations

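Some 2-fold changes fall in none of the gene lists, and the following were picked after their values were seen. Tfrc, the transferrin receptor that takes up iron, went from 0.603 on the VAD array to 1.80 at 4 h (1.57). Lbr, a receptor of the inner nuclear membrane that binds lamin B, went from 0.775 to 2.47 (1.67). Birc2, an inhibitor of cell death, went from 0.926 to 2.74 (1.56), Cav1 of caveolae from 0.879 to 2.07 (1.24), and Gpd1, which links glycolysis to glycerol lipids, from 0.945 to 2.23 (1.24). Nrarp, a feedback regulator of Notch signalling, went from 0.991 to 2.22 (1.17). Each of these rests on 1 probe set. Cyp7a1, the rate-limiting enzyme of bile acid synthesis, averaged -1.56, but its probe sets were at -0.31 and -2.81.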
